A study of Mus musculus with 8 samples.

Results

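The muscle miRNAs of the lung arrays are mmu-miR-1, mmu-miR-133a, mmu-miR-133b, mmu-miR-206, mmu-miR-208a, mmu-miR-208b and mmu-miR-499, taken by exact array name (mmu, for mouse, is left off from here on). They are 7 of the 611 mouse miRNAs measured. MicroRNAs (miRNAs) are short RNAs that lower the output of messenger RNAs that pair with their seed, bases 2 to 8 of the miRNA. The samples were whole lungs of female C57BL/6 Bom Tac mice that were pregnant during exposure, whose age the labels leave out. The 4 samples of the Printex 90 group were taken after 4 instillations through the trachea of 0.067 mg Printex 90, a carbon black nanoparticle, in nanopure water (gestational days 7, 10, 15 and 18, 0.268 mg in all). The vehicle control group, also 4 samples, had nanopure water alone. All lungs were taken at weaning, 26 to 27 days after exposure, and each sample was hybridised to 1 one-colour (Cy3) Agilent array. No label ties each array to its own mouse, so a p-value here speaks only of the spread among the samples, which may be technical.

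miR-1 and miR-133 are transcribed together in heart and skeletal muscle under the control of the muscle transcription factors SRF, MEF2 and MyoD. miR-1 favours differentiation of muscle cells and miR-133 their proliferation. miR-206, which has the seed of miR-1, is made in skeletal muscle and not in heart. miR-208a, miR-208b and miR-499 lie in myosin heavy chain genes and are made with them, miR-208a in heart and the other two in heart and slow skeletal muscle. In the mouse, a sleeve of heart muscle cells runs along the pulmonary veins into the lung.

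RefSeq sequences (GRCm38.p6) were matched for 5 of the 7 members. They are shown for the seeds that members share, and because likeness along the whole length bears on which members array probes can tell apart. The arm printed is the one that the older array name stood for, 5′ to 3′, with the seed in capitals.
miR-206-3p: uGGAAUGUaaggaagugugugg
miR-133b-3p: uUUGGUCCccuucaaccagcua
miR-208a-3p: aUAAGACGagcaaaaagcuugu
miR-208b-3p: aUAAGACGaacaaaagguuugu
miR-499-5p: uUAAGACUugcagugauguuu

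Mature miR-206 lies at chr1:20679055-20679076 and miR-133b at chr1:20682834-20682855, both on the plus strand and both within the long non-coding RNA gene Lincmd1. Their hairpins are 3686 bases apart, and the mature sequences share only 1 of 7 seed bases. miR-208a lies at chr14:54949072-54949093 within Myh6, the gene of the alpha heavy chain of heart myosin. miR-208b lies at chr14:54975710-54975731 within Myh7, the gene of the beta heavy chain of heart and slow skeletal muscle, both on the minus strand. miR-499 lies at chr2:155622893-155622913 (plus strand) within Myh7b. miR-208a and miR-208b have the same seed and are identical at 19 of 22 bases. They differ by the substitutions G10A, A16G and C18U, given as the miR-208a base, the position from the 5′ end and the miR-208b base. miR-499 shares 6 of the 7 seed bases with miR-208a, with a G8U substitution at the last one. miR-133a and miR-133b have nearly identical mature sequences, and cross-hybridisation between their probes was not tested.

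Each array carried 2 probes for each member, with about 10 spots a probe. Detection on an array required a probe with 50% or more of its kept spots well above background. Signals are the sum of the probe means divided by the array's 75th percentile, so 1 is the 75th percentile of the miRNAs detected everywhere. All 8 arrays shared 1 slide and 1 scan, Printex 90 samples filling row 2 of the slide and controls row 1, so that slide row and exposure cannot be told apart. Each array detected 248 to 283 mouse miRNAs, and 268 were tested between groups with limma. The number of arrays limits the precision. In whole lung, fewer muscle cells and less miRNA per cell cannot be told apart.

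miR-1, miR-133a and miR-133b were detected on all 8 arrays, miR-206 on 7, and miR-208a, miR-208b and miR-499 on none. Of the 611 mouse miRNAs, 240 were detected on all arrays and 318 on none. The members thus fell into 3 detected everywhere with a very variable signal, 1 close to the detection limit and 3 under it. On Printex 90 replicates 2, 3 and 4 and control replicate 4, the dimmer miR-133a probe had 0 spots well above background. On Printex 90 replicate 2, miR-133a (relative signal 0.0504) was as low as miR-206 (0.0507).

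miR-1, among the most abundant miRNAs of adult heart and skeletal muscle, had relative signals of 1.55, 0.131, 0.208 and 0.180 on Printex 90 replicates 1 to 4. On control replicates 1 to 4 it had 0.482, 0.941, 0.832 and 0.171. Printex 90 replicate 1 held the highest value of all arrays and Printex 90 replicate 2 the lowest, so the control range lay inside the Printex 90 range. The highest and lowest arrays differed 11.9-fold, and within the control group alone the range was 5.51-fold.

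miR-133a, the partner of miR-1 in the same transcripts, had 0.549, 0.0504, 0.0730 and 0.0668 on the Printex 90 arrays. It had 0.169, 0.347, 0.306 and 0.0603 on the control arrays. miR-133b, the partner of miR-206 in Lincmd1, had 0.896, 0.0816, 0.126 and 0.111 on the Printex 90 arrays, against 0.278, 0.558, 0.503 and 0.100 on the control arrays. The 8 arrays fell in the same order for miR-1, miR-133a and miR-133b. In that order Printex 90 replicate 1 was followed by control replicates 2, 3 and 1, then Printex 90 replicates 3 and 4, control replicate 4 and Printex 90 replicate 2. The widest step between neighbours was between control replicate 1 and Printex 90 replicate 3 (1.21 log2 units for miR-1, of a range of 3.57). The upper 4 arrays were thus 1 Printex 90 and 3 control arrays, and the lower 4 were 3 Printex 90 and 1 control array.

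miR-206 had 0.0526, 0.0507, 0.0335 and 0.0422 on the Printex 90 arrays, against 0.0521, 0.0648, 0.0614 and 0.0489 on the control arrays. Printex 90 replicate 3, at 2 of 20 spots well above background, was not detected and lay under the floor of 0.0388 that was set before log2 values were taken. Of the other Printex 90 arrays, 10 to 16 of 20 spots were well above background, while all 18 kept spots or 18 of 19 were on each control array. Printex 90 replicates 3 and 4 lay below all controls, and replicates 1 and 2 lay between control values.

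**Figure D1:**
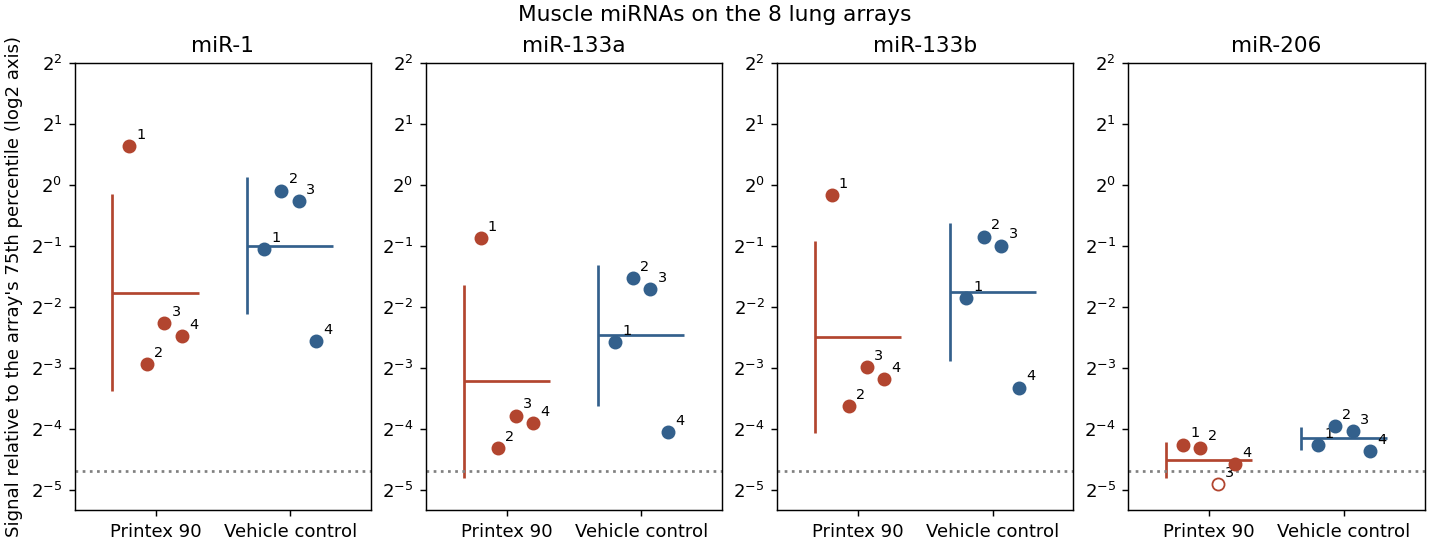
Signal of the 4 tested muscle miRNAs relative to each array's 75th percentile (log2 axis), one point per array, numbered by replicate, Printex 90 left and vehicle control right. Horizontal lines are the group means of log2 values and vertical lines ± 1 SD (n = 4 each), drawn before flooring; the dotted line is the floor of 0.0388 and the open point an array where the miRNA was not detected. miR-1, miR-133a and miR-133b show the same 8-array pattern over ranges of 10.9-fold to 11.9-fold, and miR-206 stays near the floor.

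The error between spots of the same array was small beside these differences, and it holds no error of RNA preparation, labelling or hybridisation. The standard error from the replicate spots was 1.34% to 1.75% of the signal for miR-1, 0.751% to 3.17% for miR-133a and 1.53% to 1.80% for miR-133b over the 8 arrays. It was 3.23% to 8.84% for miR-206 over the 7 arrays that detected it. The separate probes gave the same picture: those of miR-1 ranged 13.5-fold and 11.4-fold over the arrays, those of miR-133b 10.4-fold and 11.2-fold, and those of miR-133a 7.44-fold and 11.8-fold. The dimmer miR-133a probe was well above background at 39 of 78 spots, and its brighter probe at 78 of 78.

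Printex 90 and vehicle control lungs were compared to see whether lung miRNAs differed at weaning after repeated particle instillation. None of the 4 tested members passed an adjusted p of 0.05 (0 of 4, limma over all 268), where 0 of 268 tested miRNAs did (0%). At an unadjusted limma p under 0.05 there were 0 of 4 members and 15 of all 268 (5.6%), with miR-206 just outside at 0.0554. The log2 difference was below 0 for 4 of the 4 tested members (median -0.74). Over all tested miRNAs it was below 0 for 176 of 268 (65.7%), with a median of -0.05. As miR-1, miR-133a and miR-133b put the arrays in the same order, their signs are not separate observations. Of the members, 0 had all 4 Printex 90 arrays below all 4 controls, against 1 of all tested (0.373%), and 0 had groups that did not overlap in either direction, against 4 of all tested (1.49%).

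miR-1 averaged 0.518 ± 0.691 after Printex 90 and 0.606 ± 0.350 in controls (SD, n = 4 each). Its log2 difference was -0.77 (SE 0.91), a fold of 0.586 with a 95% interval of 0.132 to 2.61 (limma adjusted p = 0.767). miR-133a averaged 0.185 ± 0.243 after Printex 90 and 0.221 ± 0.131 in controls, a log2 difference of -0.75 (SE 0.90, limma adjusted p = 0.767). miR-133b averaged 0.304 ± 0.395 after Printex 90 and 0.360 ± 0.211 in controls, a difference of -0.74 on the log2 scale (SE 0.90, limma adjusted p = 0.767). The differences of these 3 were smaller than the spread within either group, whose SD of log2 values was 1.57 to 1.62 after Printex 90 and 1.12 to 1.15 in controls. Their intervals span from a more than 7-fold lower to a more than 2-fold higher signal, so a difference anywhere in that range is compatible with the data.

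miR-206 averaged 0.0447 ± 0.00876 after Printex 90 and 0.0568 ± 0.00754 in controls (SD, n = 4 each). With the floor its log2 difference was -0.30 (SE 0.13), a fold of 0.810 with a 95% interval of 0.652 to 1.01 (limma adjusted p = 0.706). It ranked 17 of 268 by unadjusted limma p, where miR-1 ranked 141. Its probes gave -0.35 and -0.37 on unfloored signals. Its unadjusted limma p fell under 0.05 in 10 of 21 alternatives, among them quantile normalization (0.0148), no scaling (0.0163) and scaling over all mouse miRNAs (0.0279), with log2 differences from -0.37 to -0.11, and its limma adjusted p stayed at 0.258 or above in all 21. With the floor doubled, every array lay at the floor and the difference was 0, and with normexp background correction it was -5.84e-04. Exact permutation over the 70 assignments of arrays gave p = 0.143 for miR-206 and 0.457 for each of miR-1, miR-133a and miR-133b (2-sided, 0.6 adjusted over 7 measures, smallest possible p 0.0286).

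Single arrays set the size of the difference. Without Printex 90 replicate 1 the miR-1 log2 difference was -1.57 (95% interval -3.10 to -0.04, limma adjusted p = 0.655). Without control replicate 4 it was -1.29. It was -0.38 without Printex 90 replicate 2, -0.47 without control replicate 2, and between -0.79 and -0.53 without any other single array. Within slide columns, which held 1 array of each group, the miR-1 difference was 1.69 in column 1, -2.85 in column 2, -1.998 in column 3 and 0.08 in column 4. The miR-206 differences in columns 1 to 4 were 0.01, -0.35, -0.66 and -0.21.

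**Figure D2:**
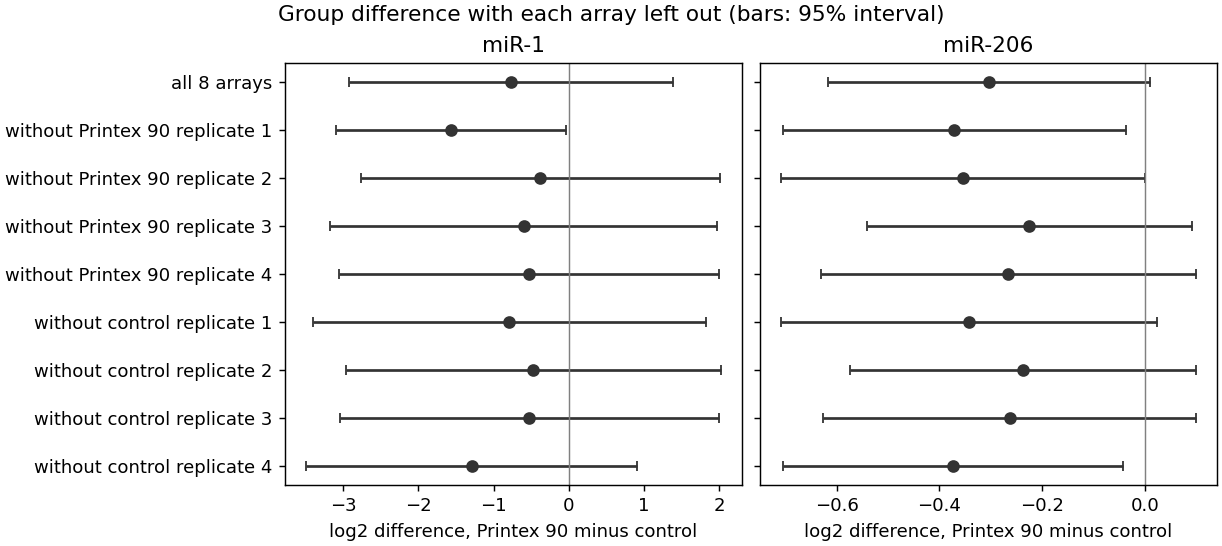
Log2 difference (Printex 90 minus control) of miR-1 and miR-206 from limma with all 8 arrays and with each array left out in turn; bars are 95% intervals, and the horizontal scales of the panels differ. The miR-1 difference is -0.77 with all arrays, -1.57 without Printex 90 replicate 1 and -0.38 without Printex 90 replicate 2, and that of miR-206 stays between -0.37 and -0.23.

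Among the miRNAs detected on all 8 arrays, the array-to-array spread set miR-1, miR-133a and miR-133b apart. Their pooled within-group SD of log2 signal was 1.39, 1.38 and 1.37, ranks 1, 2 and 3 of the 240 miRNAs detected on all arrays. The highest SD among the 237 others was 0.50 (miR-376a, named after its value was seen), and their median was 0.12. Over the 8 arrays the others ranged 1.30-fold at the median and 2.99-fold at most. Outside these 240, miR-122 of the liver list, detected on 3 Printex 90 and 4 control arrays, also varied widely. The SE of its log2 difference was 0.995, against 0.912 for miR-1. From the highest to the lowest miR-1 array, the 75th percentile before scaling was 629.1, 635.2, 628.4, 692.6, 580.8, 694.5, 804.7 and 720.6. Control replicate 4 and Printex 90 replicate 2, with the least miR-1, had the highest percentiles. The part of overall array signal in the miR-1 spread was not tested.

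**Figure D3:**
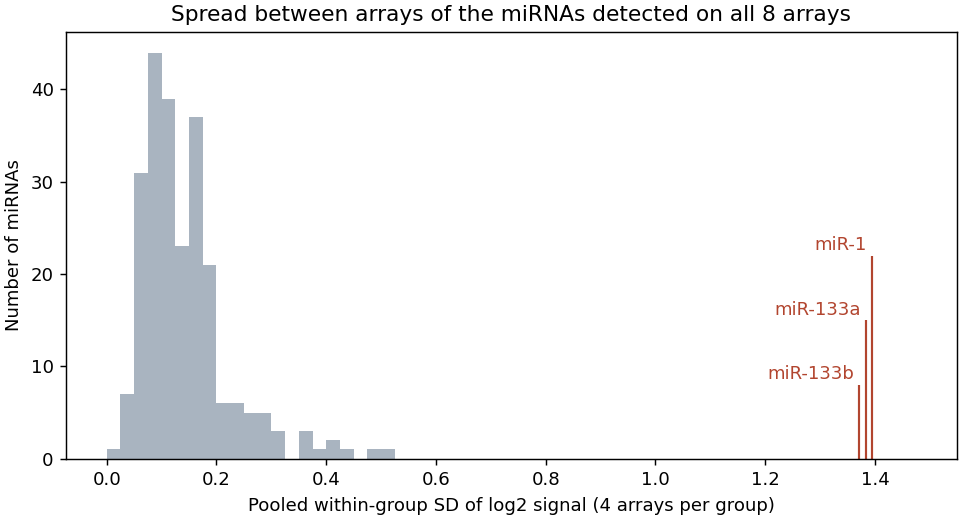
Histogram of the pooled within-group SD of log2 signal (4 arrays per group) for the 237 other miRNAs detected on all 8 arrays, in grey, with the values of miR-1, miR-133a and miR-133b as red lines whose heights have no meaning. The muscle miRNAs lie at 1.37 to 1.39 and all others at or below 0.50.

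Although they varied many-fold, miR-1, miR-133a and miR-133b kept nearly fixed proportions. The log2 ratio of miR-133a to miR-1 had a range over the 8 arrays of 0.14 (1.10-fold), and that of miR-133b to miR-1 a range of 0.12 (1.08-fold). On the log2 scale the ratio of miR-133a to miR-1 was -1.45 ± 0.06 after Printex 90 and -1.47 ± 0.04 in controls (SD, n = 4 each; 2-sided exact permutation p = 0.543, 0.6 adjusted over 7 measures). That of miR-133b to miR-1 was -0.72 ± 0.05 after Printex 90 and -0.76 ± 0.03 in controls (2-sided exact permutation p = 0.229, 0.6 adjusted). These levels depend on the probes, and only their differences between arrays carry information.

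Across the 8 arrays, miR-1 correlated with miR-133a at Pearson r = 0.9993 and with miR-133b at 0.9997, and miR-133a with miR-133b at 0.9998. Each had an exact permutation p of 2.48e-05, the smallest that 40320 pairings can give (5.79e-05 adjusted over 7 relations). Spearman's rho was 1 for each (exact permutation p = 4.96e-05, 1.16e-04 adjusted). Without the 2 arrays farthest from the median, r was 0.9986 for miR-1 with miR-133a, 0.9993 for miR-1 with miR-133b and 0.9995 for the third pair (n = 6, exact permutation p = 0.00139 each). On deviations from the group means r was 0.9993, 0.9997 and 0.9998 in the same order of pairs. As cross-hybridisation was not tested, miR-133a and miR-133b may not be separate measurements.

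The miR-206 signal, which stayed near the floor, did not keep proportion with miR-1. The log2 ratio of miR-206 to miR-1 was -2.69 ± 1.53 after Printex 90 and -3.16 ± 0.95 in controls (SD, n = 4 each). The ratio had a range of 11.5-fold over the arrays, close to that of miR-1 itself. A signal near the floor has little room to fall, so the ratio must range about as widely as miR-1. The ratio therefore cannot show whether miR-206 fell with miR-1 on the arrays low in miR-1. The correlation of miR-206 with miR-1, added after the values were seen, was r = 0.672 (exact permutation p = 0.0765, 0.0893 adjusted over 7 relations) and rho = 0.690 (exact permutation p = 0.0694, 0.0969 adjusted). Without the 2 arrays farthest from the median r was 0.663 (exact permutation p = 0.165). Where miR-1 was highest, on Printex 90 replicate 1, the miR-206 signal of 0.0526 lay within the control range of 0.0489 to 0.0648. The signal of miR-133b, which RefSeq places in the same non-coding gene as miR-206, followed miR-1 and miR-133a in array order and proportion. Whether the miR-133b probes also read the nearly identical miR-133a was not tested.

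**Figure D4:**
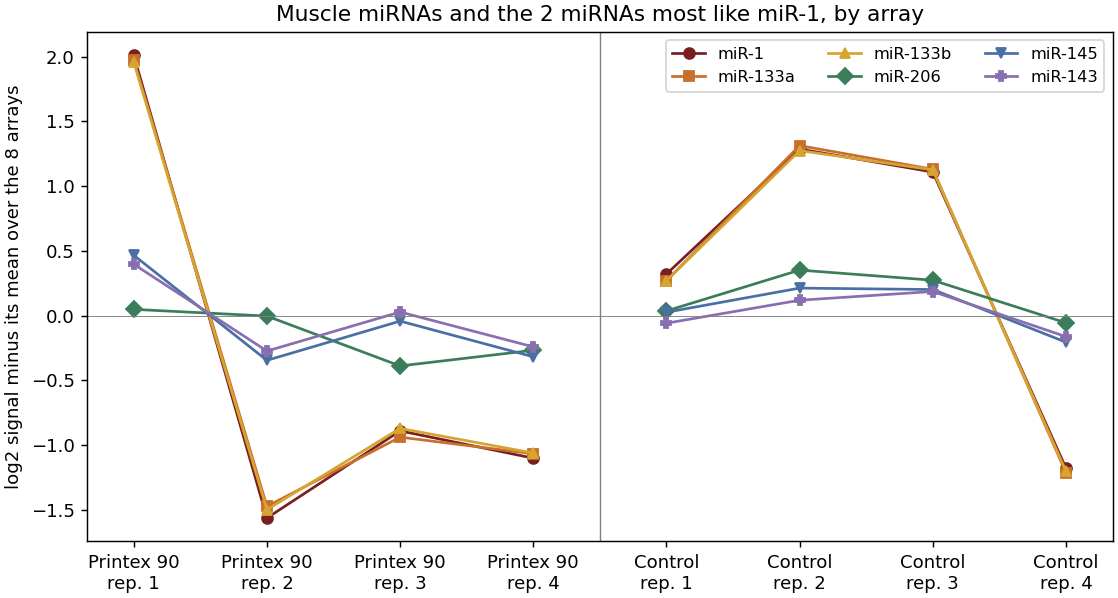
Log2 relative signal of each miRNA minus its own mean over the 8 arrays, with the 4 Printex 90 arrays on the left and the 4 control arrays on the right. The lines of miR-1, miR-133a and miR-133b overlie each other, and miR-145 and miR-143 follow them with a smaller amplitude. On Printex 90 replicate 1, miR-206 (log2 values after flooring) is highest of the Printex 90 arrays but below control replicates 2 and 3.

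The heart-enriched members stayed under the detection limit. miR-208a, miR-208b and miR-499 had 0 spots well above background on any array, of 155, 154 and 157 kept spots. Background-subtracted intensities were -7.13 to 5.02 for miR-208a, -2.68 to 4.55 for miR-208b and 1.03 to 4.06 for miR-499. The dimmest mouse miRNA that was detected on an array had 12.5 to 17.2 intensity units. This is no fixed limit, since detection was called from spots and not from the summed intensity. On Printex 90 replicate 3, miR-206 had 19.4 units and was not detected, while the dimmest detected miRNA there had 12.5. No difference between groups was computed for these miRNAs.

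Although not detected, the miR-208a signal still ordered the arrays much as miR-1 did. It measured 5.02, -4.89, -5.70 and -4.65 intensity units on Printex 90 replicates 1 to 4, against -1.81, 0.0783, -1.19 and -7.13 on control replicates 1 to 4. The 4 highest arrays were the 4 with the most miR-1. Against the miR-1 intensity, a relation chosen after the values were seen, Pearson r was 0.969 (exact permutation p = 5.95e-04, 0.00104 adjusted over 7 relations) and rho 0.833 (exact permutation p = 0.0154, 0.0269 adjusted). Without the 2 arrays farthest from the median r was 0.870 (exact permutation p = 0.0292). miR-208b ran the other way, at r = -0.906 (exact permutation p = 0.00295, 0.00413 adjusted) and rho = -0.667 (exact permutation p = 0.0831, 0.0969 adjusted), and for miR-208b without those 2 arrays r was -0.844 (exact permutation p = 0.0653). miR-499 gave r = 0.051 (exact permutation p = 0.892) and rho = 0.452 (exact permutation p = 0.267). Signals this far below the detection limit also hold the error of the background subtraction, and its part in these relations was not tested.

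Of the 315 other mouse miRNAs detected on no array, 2 had a higher r with miR-1 than miR-208a, and 0 had a lower r than miR-208b. Their r ran from -0.848 to 0.988 with a median of 0.25. The 2 above miR-208a were miR-133a*, the passenger strand of miR-133a (r = 0.988), and miR-1-2-as, so named on the array (r = 0.980). miR-133a* measured 14.1, 0.813, 0.292 and -1.12 intensity units on Printex 90 replicates 1 to 4, against 4.39, 8.80, 6.06 and 0.0936 on control replicates 1 to 4. The array order again put Printex 90 replicate 1 first and control replicates 2, 3 and 1 next. The next most alike after miR-208a was miR-490 (r = 0.931), at 11.3, 3.24, 3.92 and 2.59 on the Printex 90 arrays, against 6.37, 8.99, 8.61 and 6.36 on the control arrays. These miRNAs were named after their values were seen, and r across 315 miRNAs on 8 shared arrays is a description.

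**Figure D5:**
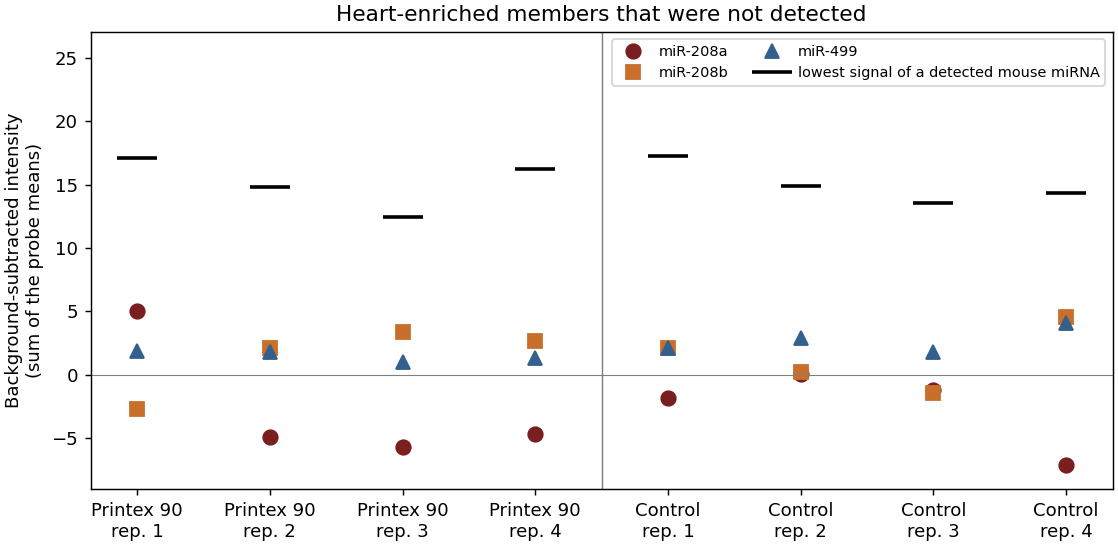
Background-subtracted intensity (sum of the probe means) of miR-208a, miR-208b and miR-499 on each array, 4 Printex 90 arrays left and 4 control arrays right; black bars mark the lowest signal of a detected mouse miRNA on that array. All values lie between -7.13 and 5.02, under the bars at 12.5 to 17.2, and miR-208a is highest on Printex 90 replicate 1.

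Among the 237 other miRNAs detected on all arrays, those most like miR-1 over the 8 arrays were miR-145 (r = 0.966) and miR-143 (r = 0.916), the pair made in smooth muscle of vessel and airway walls. The median r was 0.07, and 36 of the 237 had an r over 0.7. miR-145 measured 0.538, 0.307, 0.378 and 0.312 on Printex 90 replicates 1 to 4, against 0.397, 0.451, 0.448 and 0.338 on control replicates 1 to 4. Printex 90 replicate 1 was highest for both, as for miR-1. The amplitude was much smaller, with a range of 1.75-fold for miR-145 and 1.59-fold for miR-143, against 11.9-fold for miR-1. The next most alike were miR-1895 (r = 0.885), miR-149 (r = 0.881) and miR-1906 (r = 0.881), each with relative signals under 0.081. The least alike were miR-362-3p (r = -0.930), miR-301a (r = -0.854) and miR-22* (r = -0.848), with ranges of 1.39-fold, 1.21-fold and 1.18-fold. None of these 8 passed the threshold between groups (limma adjusted p from 0.740 to 1.00, log2 differences from -0.13 to 0.04).

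Summed signals of other cell types' miRNAs were set beside the muscle miRNAs, each with the r of its log2 sum with miR-1 as a description over the 8 shared arrays. Of the 3 smooth muscle miRNAs on the array 2 were detected, and their summed signal was 2.02 to 3.27 on Printex 90 arrays and 2.19 to 2.81 on control arrays (r = 0.928). The red blood cell list (3 of 3 detected) had sums of 21.7 to 30.6 after Printex 90 and 19.7 to 46.9 in controls (r = -0.305). The liver list (3 of 3) had 0.234 to 0.717 after Printex 90 and 0.255 to 0.585 in controls (r = 0.360). The neural list, with 6 of 9 miRNAs including miR-124 and miR-9 detected on no array, had 0.131 to 0.192 after Printex 90 and 0.161 to 0.167 in controls (r = -0.080). Of the miRNAs of the labelled tissue, all 8 of lung epithelium were detected on at least 4 arrays (12.4 to 16.6 after Printex 90, 11.3 to 14.2 in controls, r = 0.356). Both endothelial miR-126 strands were detected (34.4 to 42.3 after Printex 90, 37.3 to 43.0 in controls, r = -0.433), as were 4 of 4 leukocyte miRNAs (7.02 to 8.45 after Printex 90, 6.68 to 8.61 in controls, r = 0.116). In each sum a miRNA counted as 0 on an array where it was not detected. A sum mostly follows its brightest members, and single members differed. In the neural list, miR-128 had r = -0.776 with miR-1 and miR-219 had r = -0.788. In lung epithelium, miR-449a had r = 0.721 with miR-1 and the others 0.449 or less. Among leukocyte miRNAs, miR-150 had r = 0.711 and the others 0.310 or less. The summed signal of the muscle miRNAs was 0.313 to 3.05 after Printex 90 and 0.380 to 1.91 in controls. The part of smooth muscle content in the muscle pattern was not tested.

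Other miRNAs with a reported role in skeletal or cardiac muscle, most of them made in many tissues, were also counted. Of 36 listed, 31 were on the array, 27 were tested and 4 were detected on no array. At a limma adjusted p of 0.05, 0 of the 27 passed, and 2 (7.41%) had an unadjusted p under 0.05, against 5.6% of all tested. Their log2 differences were above 0 for 5 and below 0 for 22 (81.5%, against 65.7% of all tested) and had a median of -0.07, against -0.05 over all tested miRNAs. The smallest p among the higher were those of miR-31, which targets the myogenic factor Myf5 and is also abundant in epithelium (log2 difference 0.20, SE 0.07), and miR-128 (0.03, SE 0.04). Among the lower they were those of miR-181b (-0.10, SE 0.04) and miR-27b, which targets the myogenic factor Pax3 (-0.06, SE 0.03). A further pair was chosen after the values were seen. miR-486, made in muscle and in red blood cells, measured 0.254 ± 0.0233 after Printex 90 and 0.314 ± 0.112 in controls, and its r with miR-1 was -0.02. miR-378, which lies in the gene of the metabolic coactivator PGC-1beta, had the highest r with miR-1 of the tested miRNAs of the list (0.841). It measured 0.114 ± 0.0244 after Printex 90 and 0.107 ± 0.0165 in controls (SD, n = 4 each).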

How the data were processed

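Sample titles gave the groups and the replicate numbers. Per the file headers, the deposited intensity of each spot was written by Agilent Feature Extraction 10.7.3.1 (grid 021828), background-subtracted within each array and not normalized between arrays, with flags per spot. Per the labels' protocols, total RNA, small RNA included and enriched, came from a miRvana kit and carried the Cy3 dye. The authors' deposited log2 value table, processing not given in the sources used here, was matched by the median of quantile-normalized log2 spot signals (r = 1.00 on every array, column medians 5.41 to 5.43) and used as an alternative.

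Control and outlier-flagged spots (2.25% to 2.76% of 13000) were left out, and 0 spots were saturated. Probe means were summed, scaled to the 75th percentile of the 240 mouse miRNAs detected on all arrays, and floored at 0.0388 (the 5th percentile of detected signals) before log2. limma 3.58.1 in R 4.3.3 (2-sided, Benjamini-Hochberg) compared the 268 mouse miRNAs found on 4 or more arrays, a step also tested on simulated data. Exact permutations used Python 3.11.15. The members and lists were chosen with earlier results of these data known. All members were named, with the 5 miRNAs most and 3 least like miR-1 and 2 per side of the list of other muscle miRNAs by smallest p. The array files hold no mean signal, so normexp used the median signal. Array names can be old.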

Additional observations from a re-analysis of the deposited data

Results flagged for a closer look

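In 38 groups of 4 arrays (the tested members, their ratios and the 12 miRNAs named for likeness or by smallest p), the gap between an extreme array and its nearest neighbour was set against the group's range. It exceeded Dixon's 95% limit for groups of 4 in 3, all on Printex 90 replicate 1, the array with the most miR-1. Chance gives such a gap in about 1 of 20 groups that were not picked for their pattern. miR-149 and miR-301a were picked for being most and least like miR-1, so an extreme value on that array is built into the choice. miR-133a was high there (log2 relative signal -0.87, next -3.78, gap 0.845 of the range). miR-1 and miR-133b, which kept nearly fixed proportions with miR-133a, were also highest on that array without exceeding the limit. miR-149 was also high (-3.92, next -4.28, gap 0.901), and miR-301a was low (-1.99, next -1.75, gap 0.874).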

How the results depend on the processing

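Over 22 alternatives (scaling, background, signal measure, authors' table, filter, floor, probe summary, spread model, array weights, replicate block, each array left out with scaling and tested set kept) 0 members passed the threshold. All differences of miR-1, miR-133a and miR-133b stayed negative, with a member median from -1.52 to -0.23 and limma adjusted p from 0.534 to 0.954. That of miR-206 ran from -0.37 to 0 over 21 alternatives (limma adjusted p from 0.258 to 1.00), since the filter for all 8 arrays leaves it out. The count over all tested miRNAs was 0 to 3 when single arrays were left out, 3 without Printex 90 replicate 3 (none of them a member), and 0 under all others. The median of all miRNAs was -0.12 without scaling and 0.04 with normexp. The 3 correlations ran from 0.989 to 0.9999 over 18 alternatives each. With the replicate block, which is also the slide column, 0 of 268 passed and the miR-1 difference was -0.77 (limma adjusted p = 0.777). With group means taken out of each tested miRNA, same-numbered arrays correlated at -0.13, -0.38, -0.47 and 0.44. The best-matching control numbers for Printex 90 replicates 1 to 4 were 2, 4, 4 and 4. With 4 arrays a group, this check cannot exclude a pairing. No mouse miRNA under 12.5 to 17.2 intensity units, depending on the array, was called detected.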
